A study of Aspergillus nidulans with 6 samples.

Results

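The genes described here are 75 of the 10748 Aspergillus nidulans genes with an AN number that were expressed without tyrosol and stood at high abundance with it. They were chosen by their mean RPKM, the reads on a gene per kilobase of its length, scaled to the counted reads of the library. A gene was taken when its mean was at least 20 RPKM in the untreated libraries, at least 400 RPKM in the tyrosol libraries, and at least 3 times higher in the tyrosol libraries. Of 78 genes that met these thresholds, pst2 (AN0297), glnA (AN4159) and met2 (AN2229) were left out by name. Because the levels in both groups chose the genes, the differences between the groups are given as a description, with no test.

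The tyrosol group was 3 libraries from mycelium of the wild type strain FGSC A4, a filamentous fungus, whose cultures had received 35 mM tyrosol during exponential growth. The untreated group was 3 libraries from mycelium of the same strain without tyrosol, and all cultures grew in Barratt's minimal broth at 37 °C with shaking at 220 rpm. How long the tyrosol acted is not given in the sources used here. Nothing in the labels says that libraries of a group came from separate cultures, so the spread between them may be technical.

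The tyrosol libraries held 10632981 to 11506581 counted reads and the untreated libraries 9353438 to 11917409. The lowest count of any of the 75 genes in any library was 227 reads, so counting error is small beside the differences between the groups. It is not small beside the narrowest spreads between replicates given below. RPKM is a relative level, and in RNA from whole mycelium fewer cells with a transcript and less of it per cell cannot be told apart. The label of mycelium was set against 16 conidiation genes. The list mixes regulators of development with genes of the spores themselves, so its sum does not measure the amount of spore-forming cells. The summed level of the 16 was 638 to 708 RPKM in the tyrosol libraries and 1240 to 1315 RPKM in the untreated ones. None of the 16 was at 0 in all libraries. The summed level was carried largely by ivoB, at 151 ± 8.25 RPKM with tyrosol and 486 ± 66.6 RPKM untreated, and by stuA and rodA. Of the 15 genes tested, 10 were lowered in edgeR's quasi-likelihood test at an adjusted p under 0.05. Another 3 (flbE, vosA and medA) were raised, and 2 (stuA and ivoA) did not pass. Over all tested features 42.9% were lowered and 40.6% raised. The central regulators brlA, abaA and wetA were all among the lowered, with brlA at 11.0 ± 0.406 RPKM with tyrosol and 25.7 ± 3.37 RPKM untreated. The other pair was at very low levels in both groups. abaA averaged 0.792 RPKM with tyrosol and 2.64 RPKM untreated, and wetA 0.27 RPKM with tyrosol and 1.23 RPKM untreated. flbE averaged 38.8 ± 0.557 RPKM with tyrosol and 22.4 ± 3.98 RPKM untreated. With library size as the scaling, medA no longer passed. The part of such cells in the levels below was not tested.

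As background, tyrosol is an aromatic alcohol made from tyrosine that fungi such as Candida albicans release as a signal between cells. A fungus that meets starvation for any one amino acid raises the genes of many amino acid pathways together, a response known as cross-pathway control, which the bZIP transcription factor CpcA drives in Aspergillus. A small number of very abundant transcripts can take a large part of all reads in a fungal library, so the level of each gene is read here together with its share of the reads.

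One gene of the 75 stands apart from its own group. AN5245 had 657, 10805 and 794 RPKM in the tyrosol libraries, against 1178, 348 and 467 RPKM in the untreated libraries. Its level in tyrosol replicate 2 was 13.6 times the higher of the other tyrosol libraries, and tyrosol replicates 1 and 3 lay inside the range of the untreated libraries. The read counts behind it were 6583, 114431 and 8608 in the tyrosol libraries and 13226, 3897 and 4117 in the untreated ones. Among other AN genes with a tyrosol mean of at least 20 RPKM, the highest excess of tyrosol replicate 2 over both other tyrosol libraries was 1.62 times. With tyrosol replicate 2 left out, AN5245 averaged 726 RPKM with tyrosol, 1.09 times its untreated mean, and did not meet the thresholds. AN5245 is 1 of 3 of the 75 genes, with AN11702 and AN11936, that had no match in the RefSeq gene table. Shares of reads, ranks and level medians that it enters are given with and without it.

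In the tyrosol libraries the 75 genes took 12.1%, 12.8% and 12.1% of all counted reads, and in the untreated libraries 1.61%, 1.59% and 1.73%. The mean share was 12.3% ± 0.409 with tyrosol and 1.65% ± 0.0750 untreated (SD, n = 3 each), a ratio of 7.46. The shares of the groups do not overlap, and the lowest tyrosol library held 6.96 times the share of the highest untreated one. Without AN5245 the share was 11.9% ± 0.140 with tyrosol and 1.58% ± 0.0949 untreated, and tyrosol replicate 2, at 11.7%, was then the lowest of its group and no longer the highest. Per unit of length the picture was close to that in reads: as a share of the summed reads per base (TPM), the 75 genes took 12.6% ± 0.681 with tyrosol and 1.71% ± 0.0663 untreated, or 12.0% ± 0.176 with tyrosol and 1.62% ± 0.0744 untreated without AN5245.

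The reads can be divided over all genes by the same measure. The gain of the 75 genes came to 10.6 percentage points of the library, or 10.3 without AN5245. The 3 genes left out by name took 1.20% ± 0.0119 of reads with tyrosol and 0.184% ± 0.0144 untreated. A further 27 genes with a tyrosol mean of at least 400 RPKM had an untreated mean under 20 RPKM, and they took 3.53% ± 0.0534 with tyrosol and 0.0339% ± 0.00252 untreated. The other 1333 genes that were at least 3 times higher took 11.7% ± 0.118 with tyrosol and 2.01% ± 0.0560 untreated, close to the 12.3% of the 75 genes with tyrosol, or 11.9% without AN5245. No filter on low counts was applied to these classes, so genes with few reads are among the 1333. On the other side, 2095 genes at least 3 times lower took 4.23% ± 0.117 with tyrosol and 22.2% ± 0.678 untreated, and 6888 genes within 3 times took 67.0% ± 0.246 with tyrosol and 73.9% ± 0.601 untreated.

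**Figure D1:**
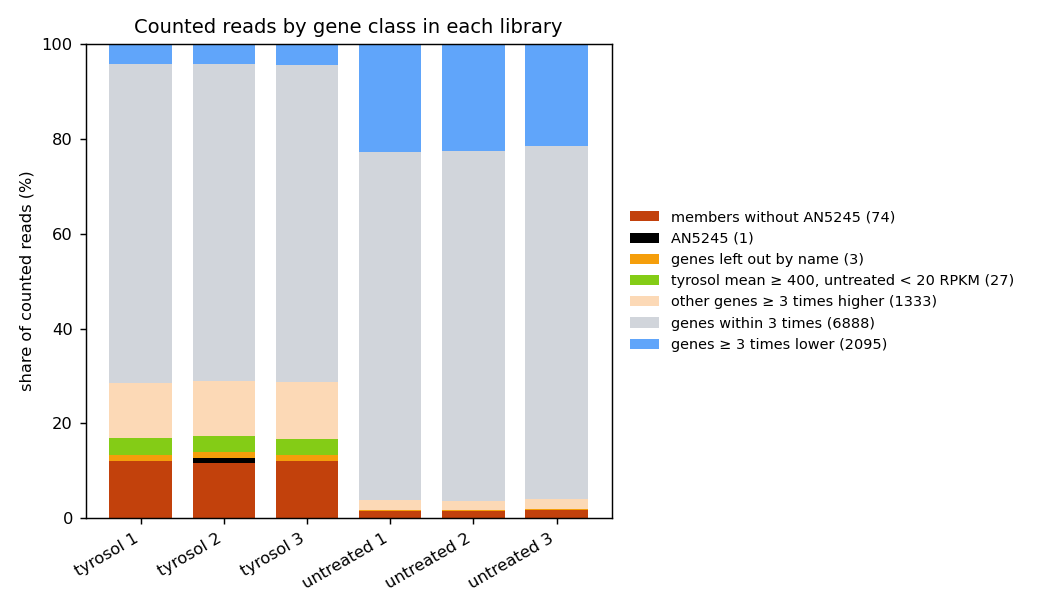
Share of counted reads (%) by gene class in each library, with the 3 tyrosol libraries on the left and the 3 untreated libraries on the right. Bars stack to the whole library, and the numbers of genes stand in the legend. The lowest segment, the genes described here without AN5245, fills 11.7% to 12.0% of the tyrosol libraries and 1.5% to 1.69% of the untreated ones, and the black segment of AN5245 is visible in tyrosol replicate 2.

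The reads were not spread evenly over the 75 genes. The 10 genes with most tyrosol reads held 35.9% of the tyrosol reads of all 75, AN5245 among them, and 16 genes carried at least 50% of the gain in share. Without AN5245 the first 10 held 36.2% of the tyrosol reads of the other 74, and 16 genes again carried at least 50% of the gain. AN6669 was first, with 0.969% of all tyrosol reads on average and 0.0725% of untreated reads. AN8489 came next, with 0.572% of tyrosol reads and 0.011% of untreated reads, and AN10003 followed with 0.423% of tyrosol reads and 0.00549% of untreated reads. The order by reads is not the order by level per length: only 5 genes were among the first 10 in both. AN8489 has a listed length of 5089 bases, the longest of the 75, and was 26th of them by RPKM. AN5131 has the shortest length, 357 bases, and took 0.0864% of tyrosol reads and 0.0197% of untreated reads, although it averaged 2419.9 ± 58.9 RPKM with tyrosol and 551 ± 47.6 RPKM untreated. The median listed length of the 75 genes was 1436 bases, against 1046 bases for the other 261 genes with a tyrosol mean of at least 400 RPKM and 1509 bases for all AN genes.

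By level per length, the genes stood far higher in the order of all genes with tyrosol than untreated. The median over the 75 genes was 747 RPKM with tyrosol and 101 RPKM untreated, and the ratio of the means ran from 3.04 to 88.3 with a median of 7.52. Without AN5245 these medians were 746 RPKM with tyrosol, 99.9 RPKM untreated and a ratio of 7.54. Of the 100 most abundant AN genes, 27 were among the 75 in the tyrosol libraries and 0 in the untreated libraries. For the 50 most abundant the counts were 17 with tyrosol and 0 untreated, and for the 10 most abundant 3 with tyrosol and 0 untreated. AN5245 was 1 of each of these tyrosol counts, which were 26, 16 and 2 without it. In all, 336 AN genes had a tyrosol mean of at least 400 RPKM and 303 an untreated mean of at least 400 RPKM, with 213 in both, and the 75 genes made up 22.3% of the 336, or 22.0% without AN5245.

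Their untreated levels differed widely. A group of 10 genes, AN5245 included, stood at 1239 to 4086 RPKM with tyrosol and already at 400 RPKM or more untreated, with a median ratio of 4.08. The 4086 RPKM is the mean of AN5245 itself, and the other 9 stood at 1239 to 2737 RPKM with tyrosol, with a median ratio of 3.77. A further 28 genes lay between 100 and 400 RPKM untreated and had a median ratio of 4.99. The remaining 37 genes lay under 100 RPKM untreated, had a median ratio of 10.9, and took 42.0% of the tyrosol reads of the 75, or 43.3% of those of the 74 without AN5245. Since the thresholds ask a higher ratio of a gene with a low untreated level, this order of ratios follows in part from the way the genes were chosen.

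**Figure D2:**
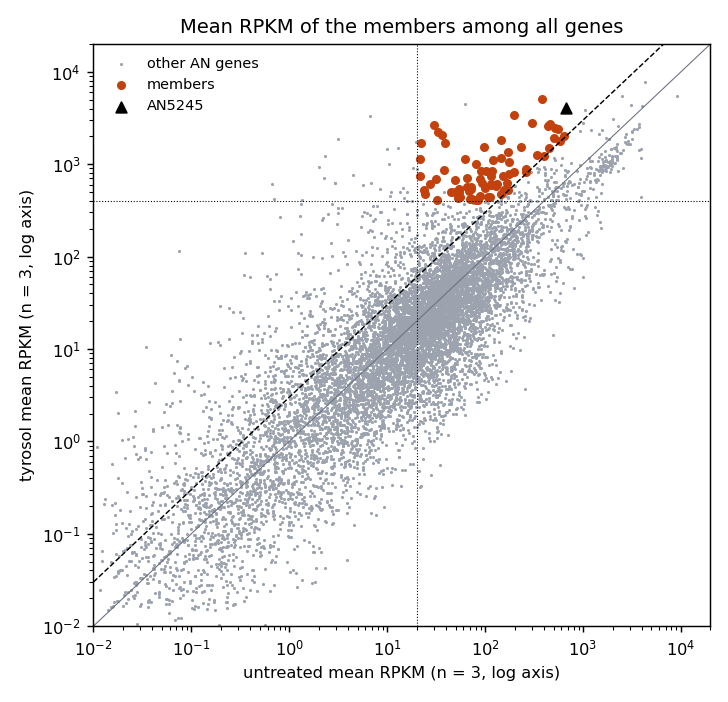
Mean RPKM of each AN gene with tyrosol (vertical, log axis) against untreated (horizontal, log axis), n = 3 libraries each, for genes with means above 0.01 RPKM in both groups. Dotted lines mark 20 RPKM untreated and 400 RPKM with tyrosol, the dashed line a ratio of 3 and the thin line equal levels, and the 75 genes fill the corner between them, from 412 to 5049 RPKM with tyrosol.

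Of the 75 genes, 72 matched the RefSeq gene table of assembly ASM1142v1 and 8 had a symbol there: cpcA, lys1, hcsA, argB, trpB, adB, pyroA and hel10. That is 10.7% of them, against 7.25% of all AN genes. What the other 67 genes do is not given in the sources used here. The 8 genes with a symbol held 1.21% ± 0.0193 of reads with tyrosol and 0.279% ± 0.0225 untreated. They included a regulator of amino acid synthesis, 4 enzymes that make amino acids, a purine enzyme and a vitamin B6 enzyme.

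The regulator is cpcA (AN3675), the transcription factor of cross-pathway control. It had 1204, 1293 and 1219 RPKM in the tyrosol libraries, against 355, 392 and 459 RPKM in the untreated libraries. The groups do not overlap, although the lowest tyrosol library was only 2.62 times the highest untreated one. The ratio of means, 3.08, put cpcA just inside the threshold of 3, and its untreated level of 402 ± 52.7 RPKM was the lowest of the 10 genes at 400 RPKM or more untreated. The table also lists a pair of rows for upstream open reading frames of cpcA, short reading frames in the leader that are known to set its translation. Both had 0 reads in all 6 libraries, as did 30 of the 31 such rows, and how reads in overlapping features were assigned is not given in the sources used here.

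Among the enzymes, lys1 (AN2873) was the most abundant. Its name follows the Saccharomyces cerevisiae gene for saccharopine dehydrogenase, the last enzyme of lysine synthesis. It had 1367, 1323 and 1414 RPKM in the tyrosol libraries, against 178, 162 and 179 RPKM in the untreated libraries, a ratio of means of 7.9, the highest of the 8. The gene hcsA (AN1990) shares its name with the homocitrate synthase gene of Aspergillus fumigatus, which encodes the first enzyme of the same pathway. It had 1038, 1069 and 1101 RPKM in the tyrosol libraries, against 159, 166 and 199 RPKM in the untreated libraries. Both lysine genes were thus higher in every tyrosol library than in any untreated one, by at least 7.38 times for lys1 and 5.23 times for hcsA.

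The enzymes of other amino acids stood lower. argB (AN4409) encodes ornithine carbamoyltransferase, an enzyme of arginine synthesis. It had 428, 389 and 420 RPKM in the tyrosol libraries, against 78.6, 87.9 and 89.7 RPKM in the untreated libraries. trpB (AN6231) encodes tryptophan synthase, which carries out the last step of tryptophan synthesis. It had 408, 393 and 436 RPKM in the tyrosol libraries, against 88.3, 73.9 and 82.2 RPKM in the untreated libraries. These are the lowest tyrosol means of the 75 genes, so both lie just above the threshold of 400 RPKM, with ratios of 4.83 for argB and 5.06 for trpB.

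The other named genes belong to different pathways. adB (AN0893) encodes adenylosuccinate synthase, which acts on the way from IMP to AMP. It had 743, 717 and 759 RPKM in the tyrosol libraries, against 136, 156 and 170 RPKM in the untreated libraries, with a ratio of means of 4.8. pyroA (AN7725) is needed for the synthesis of pyridoxine, a form of vitamin B6, whose phosphate is the cofactor of many enzymes of amino acid metabolism. It had 448, 477 and 495 RPKM in the tyrosol libraries, against 144, 134 and 154 RPKM in the untreated libraries, with a ratio of means of 3.28. hel10 (AN4252) had 1465, 1568 and 1489 RPKM in the tyrosol libraries, against 412, 462 and 460 RPKM in the untreated libraries, with a ratio of means of 3.39, and was the most abundant named gene in both groups.

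The list of amino acid and sulfur metabolism genes puts these levels beside the rest of the pathways. It held 14 genes with a symbol in the table, and 4 of them, lys1, cpcA, argB and trpB, are among the 75. Since those 4 were chosen for their levels in both groups, the list is described by its other 10 genes. Leaving the 4 out takes away raised genes only, so the other 10 do not stand for the list. Over all 14 genes 9 were called raised and 5 lowered, with a median log2 fold change of 1.39. Of the other 10, 5 were raised and 5 lowered in edgeR's quasi-likelihood test at an adjusted p under 0.05. Their median log2 fold change was -0.12, between luA at 0.92 and lysB at -1.17, against -0.04 over all 8905 features tested. Of all tested features 40.6% were called raised and 42.9% lowered. One of the 10, met2, also met the thresholds and was left out by name, and without it the median of the other 9 was -1.17, with 4 raised and 5 lowered.

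The raised ones include partners of the named genes. trpC, the trifunctional enzyme of earlier tryptophan steps, averaged 269 ± 12.1 RPKM with tyrosol and 75.9 ± 1.28 RPKM untreated (log2 fold change 2.05 ± 0.08 SE, edgeR adjusted p = 5.3e-11). argEF, which encodes a precursor of 2 early arginine enzymes, averaged 214 ± 14.6 RPKM with tyrosol and 101 ± 5.26 RPKM untreated (log2 fold change 1.30 ± 0.09 SE, edgeR adjusted p = 1e-08). metG, the cystathionine beta-lyase of methionine synthesis, and luA of leucine synthesis rose by 1.47 and 0.92 on the log2 scale. met2, left out by name, averaged 503 ± 22.3 RPKM with tyrosol and 38.0 ± 1.33 RPKM untreated.

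The lowered ones include genes of the same lysine route as lys1. lysF, the homoaconitase of lysine synthesis, averaged 9.70 ± 0.581 RPKM with tyrosol and 55.7 ± 0.897 RPKM untreated (log2 fold change -2.30 ± 0.09 SE, edgeR adjusted p = 4.3e-11). lysB had a log2 fold change of -1.17 ± 0.08 SE (edgeR adjusted p = 2e-08). Genes with lysine symbols therefore stood in both directions, lys1 higher and lysF and lysB lower with tyrosol. ilv3 and his3, named after yeast genes of branched-chain amino acid and histidine synthesis, had log2 fold changes of -2.31 and -1.93, and sC, the ATP sulfurylase gene, one of -4.58, and all 3 passed edgeR's test.

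**Figure D3:**
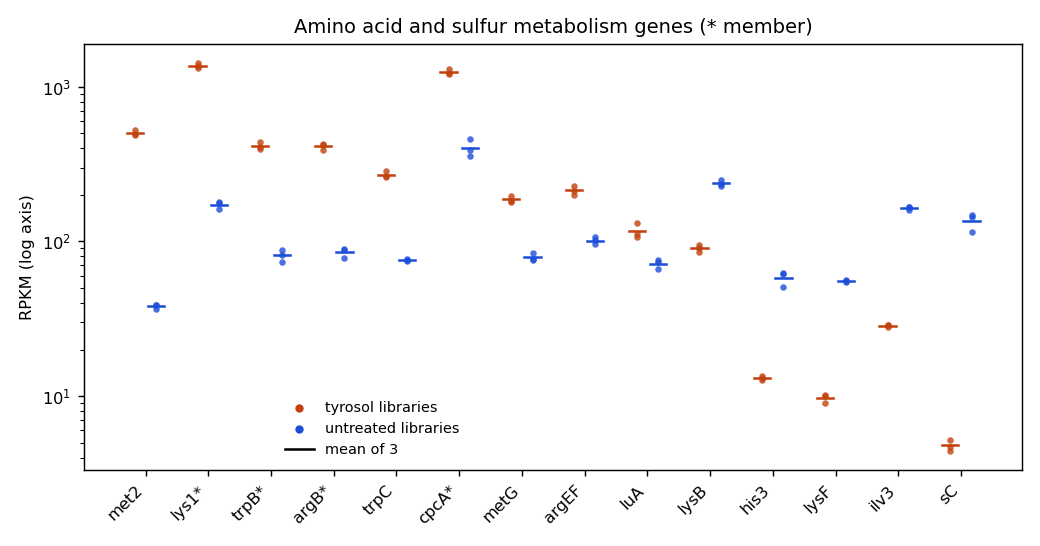
RPKM (log axis) of the 14 genes of the amino acid and sulfur metabolism list in each library, tyrosol on the left and untreated on the right of each pair, with bars at the mean of 3 libraries. Asterisks mark the 4 genes that belong to the 75. Points of the same group lie close together, the 9 genes from met2 to luA stand higher with tyrosol, and the 5 genes from lysB to sC stand lower.

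The other 10 lists, with 99 genes in the table, held none of the 75 genes. They were chosen with earlier results of these data known, so their calls are description only. Many of their symbols had no match: 4 of 9 tyrosine and phenylacetate symbols were found, and 8 of 46 carbon metabolism symbols. In these lists all 4 tyrosine and phenylacetate breakdown genes rose, as did 10 of 11 peroxisome and fatty acid genes, with 0 lowered, and 7 of 8 oxidative stress genes, with 1 lowered. All 17 ribosome and translation genes and all 6 chaperones fell, and of 8 carbon metabolism genes 6 fell and 1 rose, each by the same edgeR test. The remaining lists went both ways. Of 12 secreted hydrolase and cell wall genes 7 rose and 5 fell, of 10 nitrogen assimilation genes 5 rose and 3 fell, of 6 autophagy and proteasome genes 3 rose and 1 fell, and of 15 conidiation genes 3 rose and 10 fell, against 40.6% raised and 42.9% lowered over all tested features. The nitrogen list holds glnA and the oxidative stress list pst2, both left out by name and raised. With library size alone the raised oxidative stress genes came to 5 of 8. The median log2 fold changes of the 10 lists ran from -2.74 for ribosome and translation to 7.96 for tyrosine and phenylacetate breakdown.

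The most abundant of the 75 genes carry no symbol. AN6669 had 5146, 4964 and 5038 RPKM in the tyrosol libraries, against 385, 335 and 412 RPKM in the untreated libraries. It was 4th of all AN genes with tyrosol and 316th untreated, and its lowest tyrosol library was 12.0 times its highest untreated one. AN1812 had 3451, 3459.6 and 3348 RPKM in the tyrosol libraries, against 173, 196 and 217 RPKM in the untreated libraries, which placed it 10th with tyrosol and 579th untreated. AN10664 had 2808, 2794 and 2839 RPKM in the tyrosol libraries, against 298, 287 and 322 RPKM in the untreated libraries. All 3 genes were nearly level across the tyrosol libraries, and their groups lie far apart.

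AN6693 and AN8308 were less even. AN6693 had 2653, 2333 and 3225 RPKM in the tyrosol libraries, against 403, 507 and 469 RPKM in the untreated libraries. AN8308 had 2572, 2175 and 2952 RPKM in the tyrosol libraries, against 334, 456 and 533 RPKM in the untreated libraries. In both genes tyrosol replicate 2 was the lowest and tyrosol replicate 3 the highest of the group, the reverse of what AN5245 showed for replicate 2. After AN5245 they had the widest relative spread in the tyrosol group, with SDs of 16.5% and 15.1% of the mean, and yet the lowest tyrosol library was 4.60 and 4.08 times the highest untreated one.

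Several of the abundant genes were high in both groups. AN4049 averaged 2471 ± 84.3 RPKM with tyrosol and 521 ± 18.1 RPKM untreated, and AN5131 stood close to it in both groups. AN8605 averaged 2011 ± 90.3 RPKM with tyrosol and 637 ± 50.4 RPKM untreated, AN10030 averaged 1915 ± 66.2 RPKM with tyrosol and 508 ± 43 RPKM untreated, and AN4742 averaged 1773 ± 130 RPKM with tyrosol and 581 ± 66.7 RPKM untreated. Their ratios lay between 3.05 for AN4742 and 4.74 for AN4049, in the lower part of the range. AN8102 is different, at 1825 ± 73 RPKM with tyrosol and 145 ± 25.1 RPKM untreated, a ratio of 12.6.

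The highest ratios came from genes with low untreated levels. AN8764 had 2664, 2746 and 2647 RPKM in the tyrosol libraries, against 28.6, 30.9 and 31.8 RPKM in the untreated libraries, a ratio of means of 88.3. It was 17th of all AN genes with tyrosol and 3543rd untreated. AN10003 had 1713, 1536 and 1833 RPKM in the tyrosol libraries, against 19.3, 21.2 and 25.5 RPKM in the untreated libraries, a ratio of 77. AN3429 had 2263, 2284 and 2184 RPKM in the tyrosol libraries, against 25.9, 32.3 and 40.2 RPKM in the untreated libraries, a ratio of 68.4. In these 3 genes the lowest tyrosol library was at least 54.4 times the highest untreated one.

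AN6412 averaged 2070.2 ± 69.6 RPKM with tyrosol and 36.5 ± 8.51 RPKM untreated, and AN8489 averaged 1125 ± 22.7 RPKM with tyrosol and 21.6 ± 0.91 RPKM untreated, with ratios of 56.7 and 52. AN3180 averaged 1691 ± 59.1 RPKM with tyrosol and 39.0 ± 1.2 RPKM untreated, and AN6227 averaged 746 ± 22.2 RPKM with tyrosol and 21.8 ± 2.92 RPKM untreated. The last of the 10 highest were AN7758, with a ratio of 23, and the neighbours AN0402 and AN0401, with 22.1 and 21.9. In all, 24 genes had a ratio of 10 or more, 29 one of 5 to 10 and 22 one of 3 to 5.

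**Figure D4:**
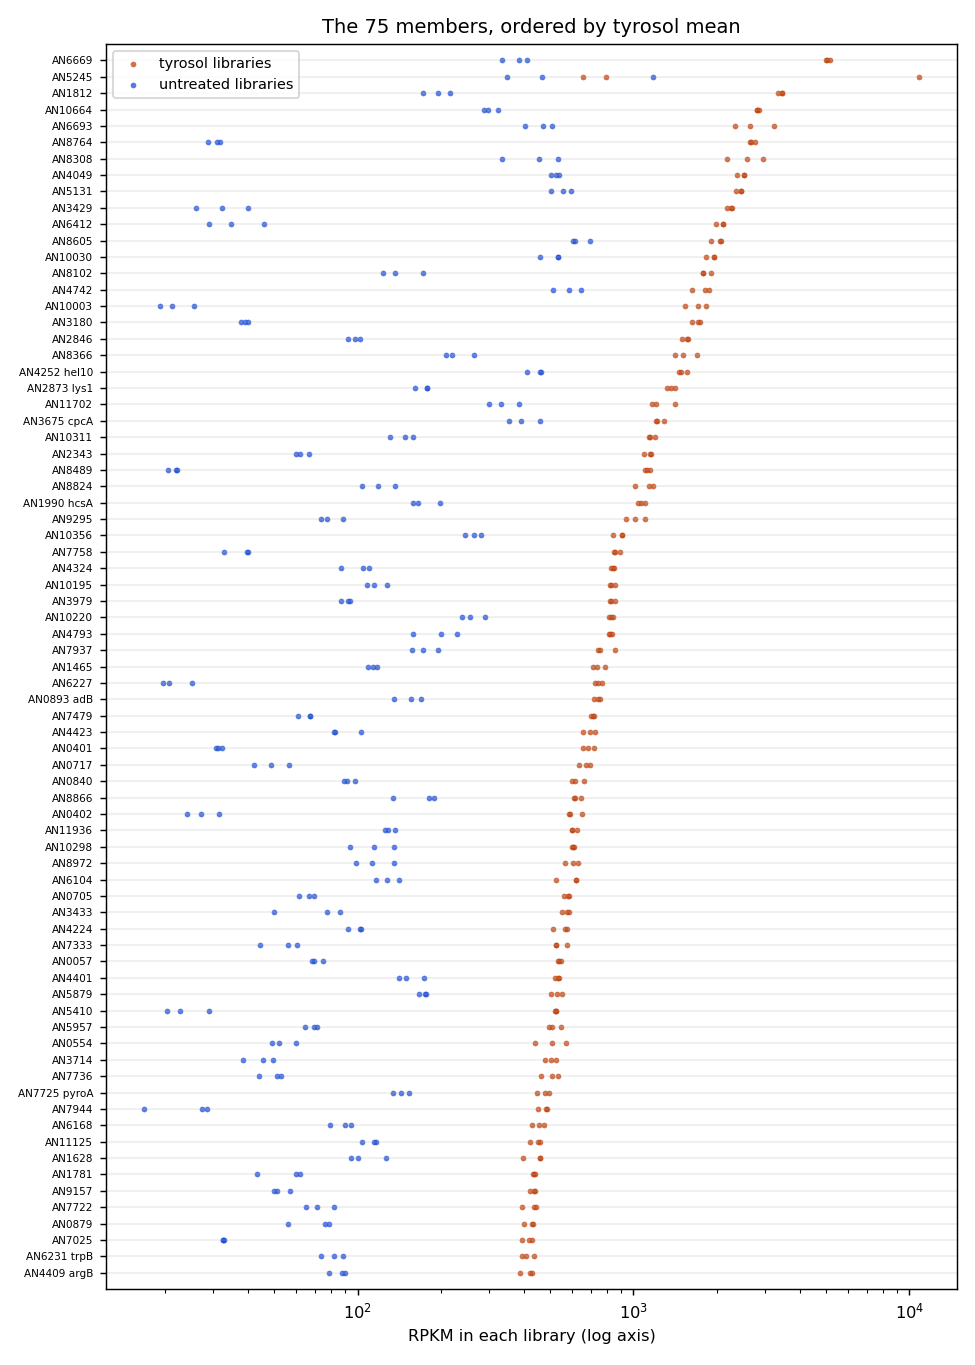
RPKM of each of the 75 genes in each library (log axis), ordered from the highest tyrosol mean at the top to the lowest at the bottom, with tyrosol libraries in orange and untreated libraries in blue. The colours are separate in 74 rows, and in the row of AN5245 they are mixed, with a single tyrosol library at 10805 RPKM.

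Genes close to a threshold show how sharp the choice is. Just above 400 RPKM with tyrosol were argB, trpB and AN7025 (412, 412 and 414 RPKM), and just below were AN1198, AN9500 and AN2995 (398, 393 and 392 RPKM). Just above 20 RPKM untreated were AN8489, AN6227 and AN10003 (21.6, 21.8 and 22.0 RPKM), and just below were AN10783, AN8060 and AN8768 (19.99, 19.5 and 18.2 RPKM). AN8060 averaged 1759 ± 177 RPKM with tyrosol, so genes outside this threshold were as abundant as those inside. Just above a ratio of 3 were AN5879, AN4742 and cpcA (3.04, 3.05 and 3.08), and just below were AN9408, AN8750 and midA (2.96, 2.91 and 2.89).

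The RefSeq table gives the order of the genes, with a place for 72 of the 75. Of these 72, only AN0401 and AN0402 lie next to each other. AN0401 had 685, 656 and 722 RPKM in the tyrosol libraries, against 31.2, 32.2 and 30.8 RPKM in the untreated libraries. AN0402 had 587, 585 and 652 RPKM in the tyrosol libraries, against 24, 27.1 and 31.4 RPKM in the untreated libraries. The levels of the neighbours differed by little in either group, their ratios were 21.9 and 22.1, and their groups do not overlap.

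A further 4 pairs had 1 to 4 genes between them, and the genes between did not share their ratios. Between AN10220 and AN1628 lies AN1629, which averaged 31.9 ± 1.35 RPKM with tyrosol and 46.0 ± 3.86 RPKM untreated, a ratio of 0.693. Between pyroA and AN7722 lie AN7723 and AN7724, with ratios of 0.515 and 0.546. Between AN3429 and AN3433 lie 3 genes with ratios of 0.977 to 1.98, and between trpB and AN6227 lie 4 genes with ratios of 0.385 to 1.29. AN7722 overlaps a neighbouring gene in that table, so its reads may be shared.

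The genes next to the 72 with a place in that order were also read from the fit over all features. Of 123 tested flanking genes that are not among the 75, 58 were raised, 51 lowered and 14 did not pass edgeR's test at an adjusted p under 0.05. That is 47.2% raised, against 40.5% of the 8394 tested AN genes with a place in the same order. Their median log2 fold change was 0.17, against -0.05 over those genes. When scaled by library size alone, the flanking genes had a median of -0.06, against -0.28 over those genes. With that scaling 49 of the 123 were raised and 54 lowered, against 2879 raised and 4178 lowered of the 8394.

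The spread between replicates was not itself a threshold. A wide spread can still carry a mean over one, as tyrosol replicate 2 did for AN5245. In the tyrosol libraries the SD was 4.0% of the mean RPKM at the median over the 75 genes, and 4.25% over the 261 other genes with a tyrosol mean of at least 400 RPKM. In the untreated libraries the medians were 10.4% for the 75 genes and 8.15% for the 261 others. The 261 genes are matched to the 75 by tyrosol level only. Untreated, 10 of the 75 stood at 400 RPKM or more, against 213 of all 336. The untreated medians therefore compare genes of unlike level. Above 20% in the tyrosol group lay only AN5245, at 142%, of all 336 genes. Leaving AN5245 out, the values of the other 74 ran from 0.638% to 16.5% with tyrosol and from 0.784% to 26.5% untreated.

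The steadiest genes in the tyrosol group were AN5410, AN10664 and AN10298, with SDs of 0.638%, 0.823% and 0.912% of the mean. AN5410 had 526, 520 and 525 RPKM in the tyrosol libraries, against 20.4, 22.7 and 28.9 RPKM in the untreated libraries, and AN10298 averaged 605 ± 5.52 RPKM with tyrosol and 115 ± 20.6 RPKM untreated. Untreated, the steadiest were AN7025, AN0401 and AN5879, with SDs of 0.784%, 2.37% and 3.02% of the mean. AN7025 had 599, 607 and 471 reads there, and the counting error of such counts is larger than its SD. The order of the steadiest genes may therefore be one of counting, which was not tested. The widest untreated spreads after AN5245 were those of AN3433, at 26.5% around a mean of 71.1 RPKM, and AN7944, at 26.2% around 24.2 RPKM.

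Untreated replicate 3, the library with fewest reads, was the highest of its group for 49 of the 75 genes, replicate 2 for 15 and replicate 1 for 11. With tyrosol the counts were 27 for replicate 1, 21 for replicate 2 and 27 for replicate 3. Untreated replicate 3 was also the highest of its group for 54.0% of the 261 other genes with a tyrosol mean of at least 400 RPKM and for 38.6% of the 8824 other tested AN genes, against 65.3% of the 75, and the difference between these shares was not tested. The cause of the order in the untreated libraries was not tested.

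**Figure D5:**
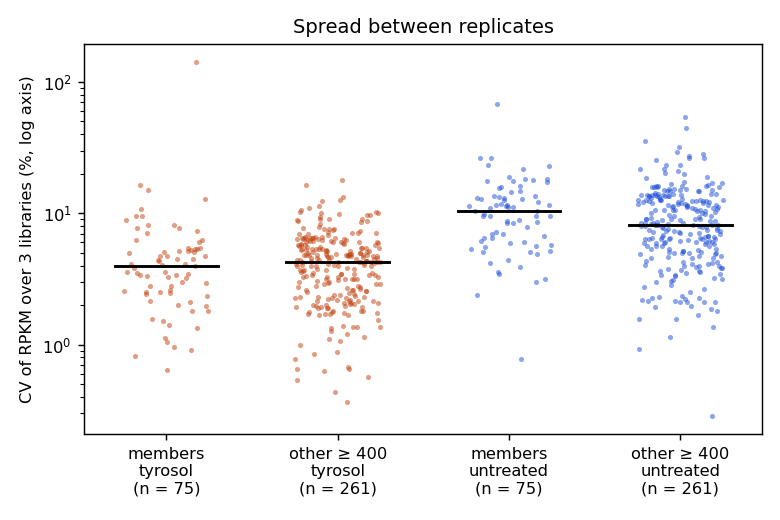
SD as a percentage of the mean RPKM over 3 libraries (log axis) for the 75 genes and for the 261 other genes with a tyrosol mean of at least 400 RPKM, in the tyrosol group on the left and the untreated group on the right. Each point is a gene and bars are medians. Both sets spread less with tyrosol, at 4.0% and 4.25%, than untreated, at 10.4% and 8.15%, and the point at 142% is AN5245.

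The 39 genes not described singly had tyrosol means of 421 to 1549 RPKM and untreated means of 44.4 to 339 RPKM. Their ratios ran from 3.16 to 18.0 with a median of 7.15, and they held 35.6% of the tyrosol reads of the 75. The 36 genes described singly held the other 64.4%. Without AN5245 the shares were 36.7% for the 39 genes and 63.3% for the 35 described singly.

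All 75 genes passed the filter on low counts and were called raised in the fit over all features, where 83.5% of 8905 features were called changed in either direction and 40.6% raised. AN5245 lost that call without tyrosol replicate 2 and without untreated replicate 2. Since the choice of the genes used this contrast, nothing is read from that count. Every tyrosol library lay above every untreated one in 74 of the 75 genes, the exception being AN5245, against 35.1% of 8899 tested AN genes. In 67 of the 75 every tyrosol library was at least 3 times every untreated one. The threshold on the ratio of means largely sets that count. Its share over all tested AN genes was not counted, so nothing is read from it. A ratio of means of at least 3 was found in 12.1% of tested AN genes. On the scale of edgeR's TMM factors, the trimmed mean scaling between libraries, log2 fold changes of the 75 ran from 1.83 to 6.69 with a median of 3.14.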

How the data were processed

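The TruSeq RNA kit was used for all 6 libraries, per the labels' protocols. Per the submitters' processing notes, the tools were edgeR, DESeq2 1.24.0, HISAT2 2.1.0 and FastQC, without saying what each was used for. No source used here gives the genome build, the annotation, how reads were counted or whether strand was used, so reads of overlapping genes or near-identical copies may be shared. The deposited counts of 10988 features are whole and not normalized, and the deposited RPKM values equal count over length and column total within a relative difference of 1.26e-14. T columns were read as tyrosol and K columns as untreated, since K abbreviates control in Hungarian.

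The test was that of edgeR 4.0.16 under R 4.3.3 (filterByExpr, TMM factors, two-sided quasi-likelihood, Benjamini-Hochberg adjusted p under 0.05 over all tested features). Its steps were run on simulated data with far fewer changed genes, raised and lowered in equal number. That simulation cannot judge the scaling or the calls in these data. SE is the log2 fold change over the square root of F, and ± elsewhere is SD over 3 libraries. Symbols, gene order and overlaps came from the RefSeq table of ASM1142v1 and its coordinates. The authors' build is unknown here, so their gene bounds may differ from these.

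The genes and the 11 lists were chosen with earlier results of these data known. Genes are named with values if they have a symbol, are among the 15 highest tyrosol means or 10 highest ratios without one, lie next to another, are the 3 nearest to a threshold on either side, or have the 3 widest or 3 smallest spreads in a group. Alternatives were other scalings, filters, tools (DESeq2 1.42.0, limma 3.58.1), thresholds, TPM and leaving out each library.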

Additional observations from a re-analysis of the deposited data

How the results depend on the processing

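The checks without AN5245 and those of the ratio of shares were added after the data were seen, and the others were planned. The number of genes meeting the thresholds, 75, ran from 73 to 76 with 1 library left out. It was 143 with a tyrosol minimum of 200 RPKM, 36 with one of 800 RPKM, and 123 with TPM in place of RPKM, whose values are larger at the same thresholds. With RPKM on TMM effective library sizes 89 genes met the thresholds, 74 of them shared. Asking every library to pass left 59. The share of reads was 12.1% to 12.4% with tyrosol and 1.6% to 1.67% untreated with 1 library left out. With the 50 other features with most reads taken out of the total, it was 14.3% with tyrosol and 1.92% untreated. The ratio of shares, 7.46, was 8.72 on TMM effective library sizes and 7.52 without AN5245.

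The count of changed features, 7432, ran from 7182 to 7762 over other scalings, filters and tools and from 7147 to 7526 with 1 library left out. A block on the replicate number gave 7383, and 74 of the 75 genes were called raised. Nothing in the labels pairs libraries of the same number. Deviations of same-numbered libraries correlated at -0.0821, -0.00593 and -0.0404, which cannot show whether they were prepared together. AN5245 was the gene lost with that block, with limma-voom, and without tyrosol replicate 2 or untreated replicate 2 (74 each), and DESeq2 gave it no adjusted p. Its log2 fold change was 2.84 with all libraries and 0.37 without tyrosol replicate 2. Of the 36 genes described singly, none changed sign under other scalings, DESeq2, the block or a library left out. With library size alone their log2 fold changes were lower by a median of 0.225, and that scaling put the median of all tested features at -0.2646, against -0.04 with TMM. The planned search of promoters for motifs was not run, since no promoter sequences were analysed here.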
